A study of Homo sapiens with 6 samples.

Results

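CHST15 and 9 further genes of chondroitin sulfate synthesis are described here in LNCaP clones with reduced MBD2. The 10 genes are the sulfotransferase genes CHST15, CHST3, CHST7, CHST11, CHST12 and CHST14, the chain-building genes CHSY1 and CHPF, and the chain-starting genes CSGALNACT1 and CSGALNACT2. They were taken by name from the 16704 genes that the array features name singly, and all 10 were measured, each by 1 feature. The set was chosen by the difference of CHST15 between knockdown and control in an earlier look at the same arrays, to which genes of the same pathway were added, so the differences between these groups are given for the 10 genes as a description, with no p for any of them.

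Chondroitin sulfate is a long sugar chain attached to proteoglycan core proteins at the cell surface and in the matrix. The chain is begun on a short linkage region by an N-acetylgalactosaminyltransferase, lengthened by chondroitin synthases with their partner factors, and then sulfated in the Golgi, with the sulfate taken from the donor PAPS. The position of the sulfates sets which growth factors and receptors the chain binds. CHST15 acts late: it adds a further sulfate to N-acetylgalactosamine units that already carry a 4-O-sulfate, such as those made by CHST11 and CHST12, which yields the disulfated E-type unit. Raised chondroitin sulfate has been described in the stroma of prostate cancer.

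LNCaP is an androgen-responsive human prostate cancer line. All 6 arrays hold cytoplasmic RNA of neomycin-resistant LNCaP clones that carry a stable short hairpin RNA in the siLentGene-2 vector: 3 clones with a scrambled hairpin as control and 3 clones with an MBD2 hairpin, whose target gene encodes a reader of methylated CpG sites. Each clone is a separate stable line with 1 array, so a clone's own history and the hairpin cannot be told apart within a clone. Values are log2 expression of Affymetrix human Gene ST arrays after RMA.

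MBD2 was lower in all 3 knockdown clones, at 7.68, 7.84 and 7.81 against 8.73, 9.24 and 9.20 in the controls, which is 41.2% of the control level. Of 5 measured luminal prostate markers, KLK3 varied most. It had 8.67, 10.1 and 8.48 in the controls and 8.66, 10.3 and 10.4 in the knockdown clones (log2 fold change 0.71, groups overlapping). KLK2 had a log2 fold change of 0.19 and HOXB13 -0.26, also with overlapping groups. KRT8 and KRT18 lay between 9.99 and 10.8, with log2 fold changes of -0.038 and -0.17, and KRT18 was lower in all knockdown clones. The leukocyte marker PTPRC lay between 2.43 and 2.72 and the endothelial marker PECAM1 between 3.27 and 3.65, both dimmer than the lower quartiles of the arrays (4.71 to 4.83). Of 6 fibroblast markers, LUM, PDGFRA and PDGFRB lay between 2.27 and 4.85 and COL1A2 and COL3A1 between 5.22 and 5.61. COL1A1 lay above the array medians, at 7.10, 7.04 and 7.11 in the controls and 7.11, 7.44 and 7.44 in the knockdown clones (log2 fold change 0.24). Of the 2 measured basal markers, KRT5 was slightly higher in all knockdown clones (4.62 to 4.75 against 4.41 to 4.56), and KRT14 had 5.40 to 5.63 in the controls and 5.57 to 5.86 in the knockdown clones. The part of these markers in the chondroitin results was not tested. Array medians lay between 6.32 and 6.35, and values spread less over genes on the array of knockdown clone 1 (SD 2.00) than on the others (2.05 to 2.07). Precision is limited throughout by there being 6 arrays.

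MBD2 binds CpG dinucleotides when they are methylated, so the CpG dinucleotides of the 2 genes that differed most between the groups are shown, CHST15 on the higher and CHST11 on the lower side. Each line gives the 250 bases before the RefSeq start in GRCh38.p14, 5′ to 3′ on the gene's strand, with each CpG in capitals. The CHST15 stretch is chr10:124093599-124093848 on the minus strand, and the CHST11 stretch is chr12:104456698-104456947 on the plus strand.
CHST15: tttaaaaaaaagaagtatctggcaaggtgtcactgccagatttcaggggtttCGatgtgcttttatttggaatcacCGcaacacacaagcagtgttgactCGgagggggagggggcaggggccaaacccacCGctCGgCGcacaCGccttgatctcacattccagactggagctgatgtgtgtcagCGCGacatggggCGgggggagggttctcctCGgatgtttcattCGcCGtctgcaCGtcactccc
CHST11: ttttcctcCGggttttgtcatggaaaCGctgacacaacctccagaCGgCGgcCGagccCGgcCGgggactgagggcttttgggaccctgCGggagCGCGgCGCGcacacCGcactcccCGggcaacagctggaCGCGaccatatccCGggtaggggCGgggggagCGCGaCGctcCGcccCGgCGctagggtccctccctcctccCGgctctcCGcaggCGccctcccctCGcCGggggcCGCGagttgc

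The CHST15 stretch holds 14 CpG and the CHST11 stretch 31. Over the full window of 300 bases, which adds the 50 bases after the start, CHST15 had 18 CpG, the fewest of the 9 members matched to a RefSeq promoter. CHST7 had 22, CHPF 25, CHST3 27, CHST14 32, CHST11 34, CSGALNACT2 38, CHSY1 44 and CHST12 48. The median of the 13351 measured genes with such a window was 23, and 36.3% of them had fewer CpG than CHST15. The GC content of the CHST15 window was 56.7% against a median of 63.3%, and its ratio of observed to expected CpG was 0.75 against 0.78.

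The GC box GGGCGG, searched on both strands and itself containing a CpG, occurred in all 9 windows and in 61.2% of the windows of all measured genes. The letters TATAAA were in none of the 9 and in 8.62% of all windows. The E-box CACGTG was in 1 of the 9, that of CHSY1, and in 9.04% of all. These are matches of letters in 1 window per gene. Methylation was not measured on these arrays, and array features do not report which start a transcript used.

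**Figure D1:**
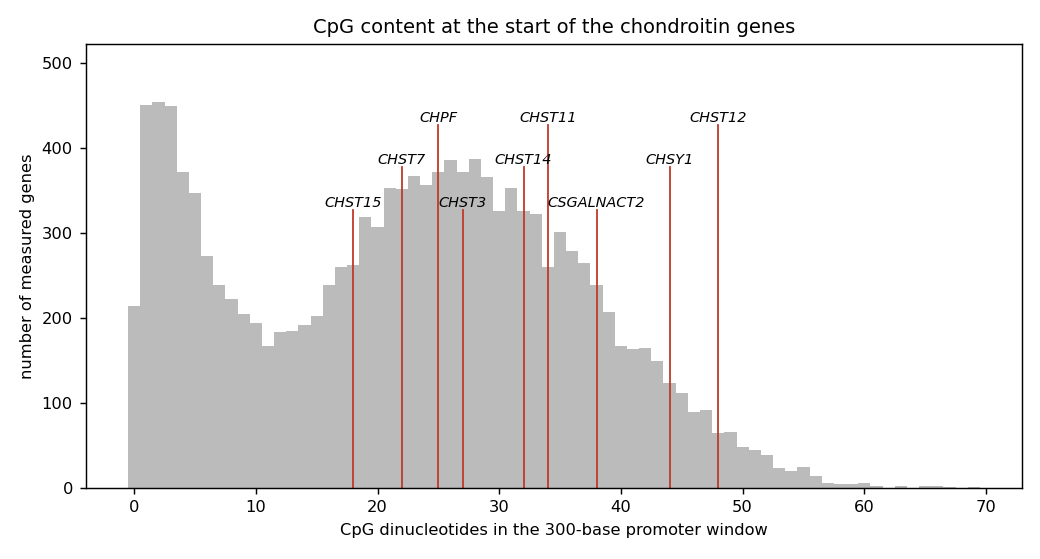
Number of CpG dinucleotides (horizontal axis) in the RefSeq window of 300 bases around the start, for 13351 measured genes (grey bars, number of genes on the vertical axis) and for 9 chondroitin genes (red lines, whose heights only separate the names). CHST15, with 18, lies to the left of the other 8, and CHST12, with 48, to the right.

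CHST15, the E-type sulfotransferase, was the member with the largest difference. Its log2 values were 6.20, 5.74 and 6.13 in control clones 1, 2 and 3 and 7.04, 7.06 and 6.72 in knockdown clones 1, 2 and 3. Every knockdown clone lay above every control clone, with a gap of 0.53 between the lowest knockdown and the highest control value. The means were 6.02 ± 0.25 and 6.94 ± 0.19 (SD, n = 3 each). The log2 fold change was 0.92, or 1.89-fold. By the size of its difference CHST15 ranked 79 of 16704 genes. The controls were themselves uneven, with clone 2 lowest, and leaving out 1 clone at a time gave differences from 0.78 (no control clone 2) to 1.03 (no knockdown clone 3).

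The 4-O-sulfotransferases supply the substrate of CHST15, and of CHST11 and CHST12 only CHST11 had groups that did not overlap. CHST11 stood at 4.99, 5.35 and 5.62 in the controls and at 4.95, 4.51 and 4.73 in knockdown clones 1, 2 and 3. All knockdown values were below all control values, but knockdown clone 1 and control clone 1 were only 0.031 apart. The means were 5.32 ± 0.32 and 4.73 ± 0.22 (SD, n = 3 each). The log2 fold change of -0.59 was the lowest of the 10 genes, and 1.52% of genes showed a larger difference in either direction. The signal was dim: knockdown clones 2 and 3 lay under 4.83, the highest lower quartile of an array. Leaving out control clone 1 gave -0.76 and leaving out control clone 3 gave -0.44.

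CHST12, the other chondroitin 4-O-sulfotransferase of the set, gave 7.42, 7.50 and 7.31 in the controls and 7.67, 7.38 and 7.46 in the knockdown clones. The groups overlapped, with knockdown clone 1 above all other clones and clones 2 and 3 within the control range. Its log2 fold change of 0.094 was smaller than the SD of the knockdown clones (0.15), and it was 0.009 without knockdown clone 1.

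CHST14, which places 4-O-sulfates in dermatan sulfate, the epimerised form of the chain, stood at 6.32, 6.30 and 6.18 in the controls and 6.43, 6.16 and 6.11 in the knockdown clones. Knockdown clone 1 was again the highest of all, and clones 2 and 3 were the lowest. The opposite deviations left a log2 fold change of -0.034, which was -0.13 when knockdown clone 1 was left out and 0.030 when clone 3 was.

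The 6-O-sulfotransferases CHST3 and CHST7 place the sulfate at the other main position of N-acetylgalactosamine. CHST3 had 6.19, 6.27 and 6.18 in the controls and 6.33, 6.04 and 5.96 in knockdown clones 1, 2 and 3. CHST7 had 5.36, 5.42 and 5.35 in the controls, a range of 0.076, and 5.83, 5.26 and 5.30 in the knockdown clones. In both genes knockdown clone 1 was above and clones 2 and 3 below every control. The log2 fold changes were -0.10 and 0.088, and that of CHST7 turned to -0.096 without knockdown clone 1.

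Chain building is carried out by complexes that contain CHSY1, a chondroitin synthase, and CHPF, its polymerizing factor. CHSY1 was the most even gene of the set among controls, at 7.68, 7.66 and 7.68, and only 1.53% of genes had a smaller control range. The knockdown clones lay below these values, at 7.59, 7.43 and 7.51, and the groups did not overlap. The difference of -0.16 corresponds to 89.5% of the control level, and the gap between the groups was 0.066. CHPF had 7.47, 7.37 and 7.61 in the controls and 7.03, 7.36 and 7.41 in the knockdown clones. Knockdown clone 1 was low and the other two lay near the controls, and the log2 fold change of -0.22 became -0.10 without knockdown clone 1.

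CSGALNACT1 and CSGALNACT2 code for the transferases that add the N-acetylgalactosamine with which a chondroitin chain begins. CSGALNACT1 varied more among knockdown clones than any other member, with 4.48, 5.19 and 5.64 in clones 1, 2 and 3 and 4.70, 4.75 and 5.18 in the controls. Its knockdown range of 1.17 exceeded that of 98.9% of genes. Clone 1 lay below and clones 2 and 3 above all controls, clone 2 only just. The log2 fold change was 0.23, and 0.54 without knockdown clone 1 but -0.043 without knockdown clone 3. CSGALNACT2 had 7.10, 6.89 and 6.91 in the controls and 6.57, 6.93 and 6.92 in the knockdown clones, so that its log2 fold change of -0.16 came down to -0.042 without knockdown clone 1.

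**Figure D2:**
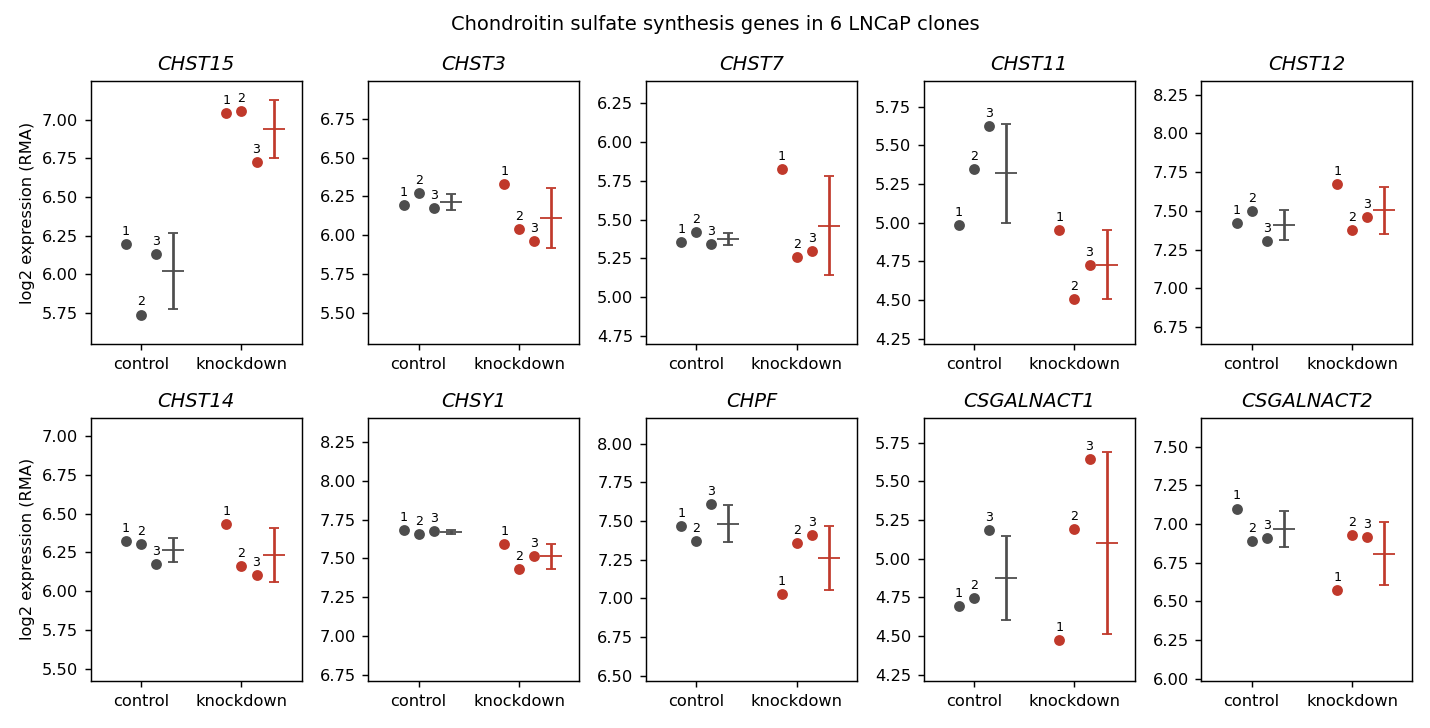
Log2 expression (vertical axis, the same span in every panel) of the 10 chondroitin genes in 3 control clones (grey) and 3 knockdown clones (red), with the clone number above each point and the mean ± SD beside the points. The groups are apart in CHST15, CHST11 and CHSY1, and knockdown clone 1 stands apart from clones 2 and 3 in most other panels.

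As a set, 4 of the 10 genes had a higher and 6 a lower mean in the knockdown clones. Over all genes 8138 were higher and 8566 lower. The median log2 fold change of the 10 was -0.068, beside -0.004 over all genes. The median size of the difference, without its sign, was 0.16 beside 0.092 over all genes. The 10 genes also varied more within groups, with a median pooled SD of 0.167 beside 0.129 over all genes. Of all 16704 genes, 0 had an adjusted p under 0.05 in limma's moderated test (Benjamini-Hochberg over all genes; 0% called), with 1568 genes, or 9.39%, at an unadjusted p under 0.05. The groups did not overlap in 3 of the 10, where 15.4% of all genes showed this: 1 with knockdown higher (6.57% of all genes) and 2 with knockdown lower (8.87%). These contrasts chose CHST15, so nothing is read from that count. Without knockdown clone 1 the count was 7 of 10 beside 35.1% of all genes, the added genes being CHST3, CHST7, CHST14 and CSGALNACT1.

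The 3 knockdown clones were not alike in most of these genes. In 9 of the 10, knockdown clone 1 lay farther from both other knockdown clones than those lay from each other, which was so in 56.8% of all genes. Clone 1 was above clones 2 and 3 in CHST3, CHST7, CHST11, CHST12, CHST14 and CHSY1 and below them in CHPF, CSGALNACT1 and CSGALNACT2. The largest gaps to the mean of clones 2 and 3 were 0.55 for CHST7 and -0.94 for CSGALNACT1. CHST15 was the exception: clone 1 and clone 2 were nearly equal and clone 3 was 0.33 below clone 2. After repeated quantile normalization or cyclic loess the count was 8 of 10, with CHST11 no longer in it, beside 54.2% and 53.9% of all genes. The array of clone 1 also had the narrower spread over genes given above, and the part of that in the pattern was not tested beyond these scalings. In MBD2 too clone 1 stood apart by this measure and was lowest, at 7.68 beside 7.84 and 7.81 in clones 2 and 3. The part of MBD2 level in the pattern was not tested.

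**Figure D3:**
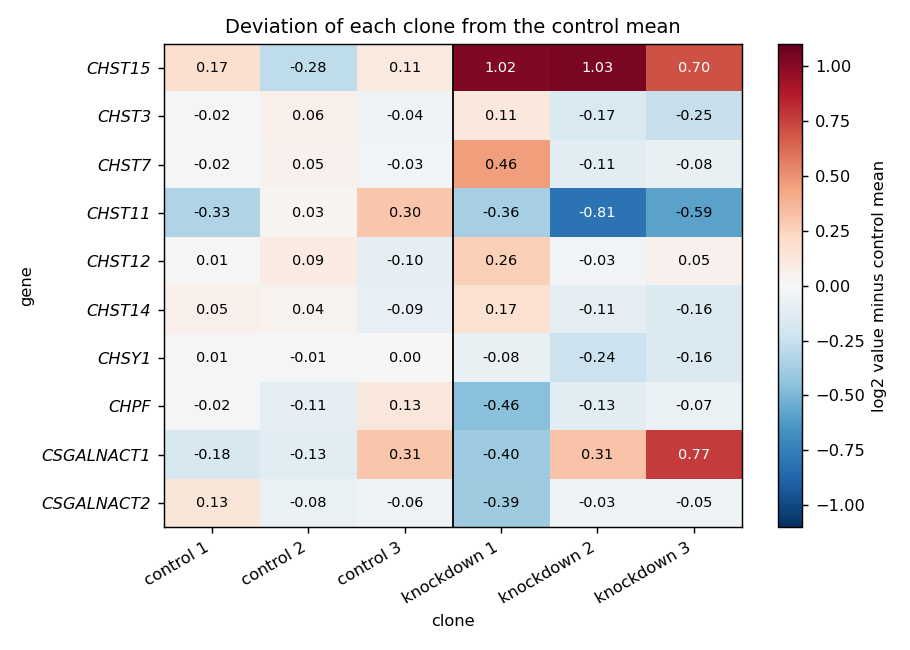
Log2 value of each clone minus the mean of the 3 control clones, for the 10 chondroitin genes (rows) and 6 clones (columns), with the value printed in each cell and red for higher. The CHST15 row is high in all 3 knockdown clones (1.02, 1.03 and 0.70), whereas CSGALNACT1 runs from -0.40 in knockdown clone 1 to 0.77 in knockdown clone 3.

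The other enzymes that act on chondroitin and dermatan chains were tested with the same fit, and 0 of 6 passed in limma, with 1 at an unadjusted p under 0.05. That gene was UST, which adds 2-O-sulfates to uronic acid, at 4.57, 4.98 and 4.98 in the controls and 4.46, 4.46 and 4.57 in the knockdown clones (log2 fold change -0.35, adjusted p = 0.455). The UST signal was dim: the knockdown clones and control clone 1 lay under 4.71, the lowest lower quartile of an array. Control clone 1 and knockdown clone 3 both stood at 4.57. DSEL, one of the epimerases that turn chondroitin into dermatan, had 0.39 (adjusted p = 0.716), with 8.27 in knockdown clone 1 and 7.04 to 7.63 in all other clones. The other epimerase gene, DSE, had -0.083. CHST13, a further 4-O-sulfotransferase, had -0.12, and the CHSY1 and CHPF relatives CHSY3 and CHPF2 had 0.051 and 0.049.

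The linkage region, on which both chondroitin and heparan sulfate are built, had the narrowest span of differences among these lists. All 6 measured genes had log2 fold changes between -0.049 and 0.059, and 0 passed in limma, with 0 at an unadjusted p under 0.05. They were XYLT2, which attaches the xylose to the core protein (0.015), the galactosyltransferase genes B4GALT7 (0.039) and B3GALT6 (0.051), the glucuronyltransferase gene B3GAT3 (0.013), the xylose kinase gene FAM20B (-0.049) and the xylose phosphatase gene PXYLP1 (0.059). XYLT1 was not analysed here.

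For the supply of sulfate donor and sugar nucleotides, 0 of 10 measured genes passed in limma and 1 had an unadjusted p under 0.05. PAPSS1, one of the synthases of the donor PAPS, gave 7.94, 8.54 and 8.07 in the controls and 9.34, 8.66 and 8.64 in the knockdown clones. All knockdown clones were above all controls, with clone 1 the highest, and the log2 fold change was 0.70 (SE 0.23, adjusted p = 0.404). PAPSS2, the other synthase, had 0.17 with overlapping groups. UAP1, which makes UDP-N-acetylhexosamines, had -0.33 (adjusted p = 0.575). BPNT1, a phosphatase of the spent donor, had -0.12 (adjusted p = 0.709), with all knockdown clones below all controls by a gap of 0.025.

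Breakdown and core protein genes gave no call either. Of 9 lysosomal and other breakdown genes 0 passed in limma, with 2 at an unadjusted p under 0.05: IDUA, the iduronidase gene, at 0.24 (adjusted p = 0.496) and ARSB, whose product removes 4-O-sulfates from chain ends, at -0.30 (adjusted p = 0.525). HEXA, a subunit gene of hexosaminidase, had -0.11. The groups did not overlap in 3 of the 9, IDUA, ARSB and HEXA, beside 15.4% of all genes. ARSB stood at 7.48, 7.18 and 7.10 in the controls and at 7.10, 6.97 and 6.77 in the knockdown clones. Control clone 3 and knockdown clone 1 were only 0.0058 apart.

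Of 21 proteoglycan core genes 0 passed in limma and 1 had an unadjusted p under 0.05. This was SPOCK1, a testican, at 4.89, 5.20 and 5.12 in the controls and 5.17, 5.85 and 5.63 in the knockdown clones (log2 fold change 0.48, adjusted p = 0.462). Its groups overlapped through knockdown clone 1. Weighting the arrays in limma (0.25 for knockdown clone 1, 3.43 for clone 2) brought SPOCK1 past the threshold (adjusted p = 0.0432). With these weights 325 of all 16704 genes passed, so the call was not particular to SPOCK1. The largest weight fell on knockdown clone 2, where SPOCK1 was highest (5.85). The smallest fell on knockdown clone 1, which overlapped the controls. SPOCK2, its relative, had 0.40 with knockdown clone 2 highest (6.29), and the cell-surface receptor gene NRP1, which can carry a chain, had -0.27. Of the matrix cores, VCAN lay between 3.39 and 3.91 and DCN between 2.75 and 3.05 in all 6 clones, both dim, whereas BGN lay between 5.54 and 6.06.

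Heparan sulfate, the sister chain made on the same linkage, and sulfotransferases of other sugars served for comparison. Of 21 measured heparan sulfate genes 13 were higher and 8 lower, and their differences had a median of 0.028 and lay between -0.28 and 0.26. None passed in limma, and 1 had an unadjusted p under 0.05, the epimerase gene GLCE (0.22, adjusted p = 0.463). HS2ST1, a 2-O-sulfotransferase, had 0.22 and EXT1, of the heparan polymerase, -0.21. Of 12 other carbohydrate sulfotransferase genes 10 were higher, with a median of 0.077. None of them passed in limma, with 2 at an unadjusted p under 0.05, the galactose sulfotransferase genes GAL3ST2 (0.25, adjusted p = 0.471) and GAL3ST4 (0.24, adjusted p = 0.508). CHST9, a sulfotransferase of N-acetylgalactosamine on glycoproteins, had 0.12.

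Across the 85 measured genes of these 7 lists, 8 had an unadjusted p under 0.05, 6 higher and 2 lower. Over all genes the shares were 9.39% in either direction, 3.93% higher and 5.45% lower. The groups did not overlap in 10 of the 85, beside 15.4% of all genes. The largest difference among the 85 was that of PAPSS1, at 0.70.

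**Figure D4:**
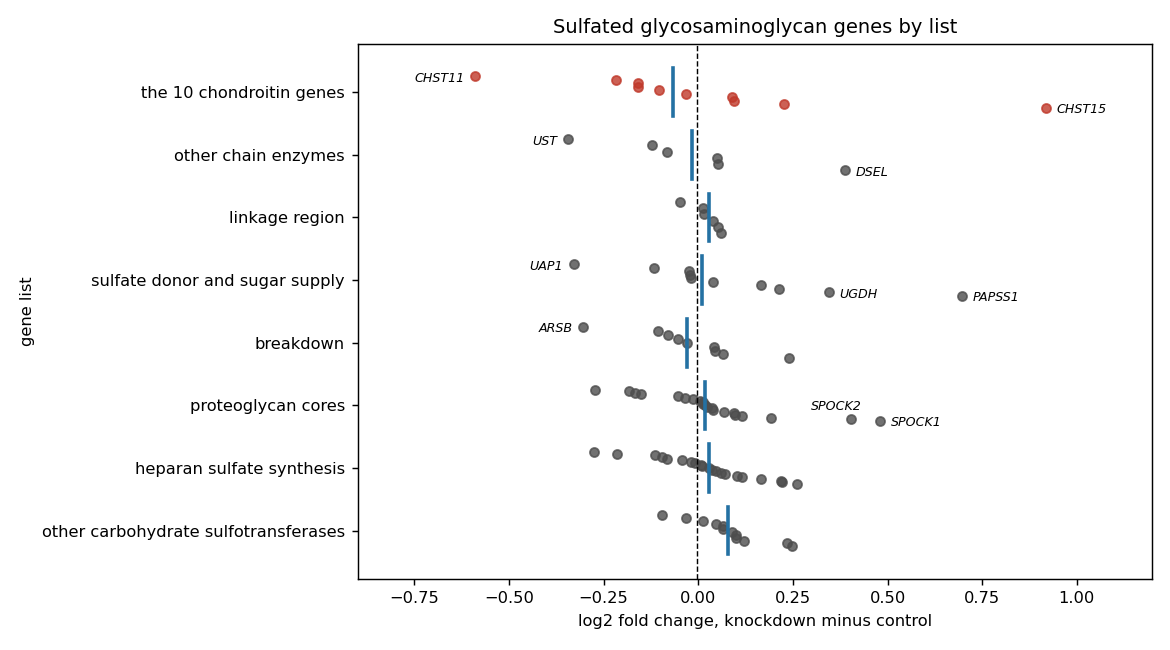
Log2 fold change, knockdown minus control (horizontal axis), of each gene (points) in the 10 chondroitin genes (red) and in 7 lists of related genes (grey), with the median of each list as a blue bar, the median of all genes as a dashed line, and names at differences over 0.3. CHST15 at 0.92 and CHST11 at -0.59 lie at the ends of the top row, and the linkage genes lie between -0.049 and 0.059.

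The genes with a pattern most like CHST15 were sought over the 6 arrays by the root mean square difference between values centred on each gene's own mean. The nearest was HPD, an enzyme of tyrosine breakdown, at a difference of 0.11 log2 units, with 4.73, 4.49 and 4.94 in the controls and 5.72, 5.81 and 5.61 in the knockdown clones. It was followed by STC1, a secreted glycoprotein (0.17), PYGL, the liver glycogen phosphorylase (0.20), INF2, a formin (0.20), AOC3, an amine oxidase of the cell surface (0.21), and CD55, a complement inhibitor (0.23). Control clone 2 was the lowest clone in CHST15, HPD, STC1, PYGL, INF2 and AOC3 and the highest control in CD55. The measure picks genes that differ between the groups as CHST15 does, so their shared direction is part of the choice. No member of the chondroitin set was close: the nearest, CHST12, stood at rank 4364 of the 16703 other genes (0.47), and CHST11 at rank 16502 (0.81). These ranks too depend largely on the group difference for which CHST15 was chosen.

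**Figure D5:**
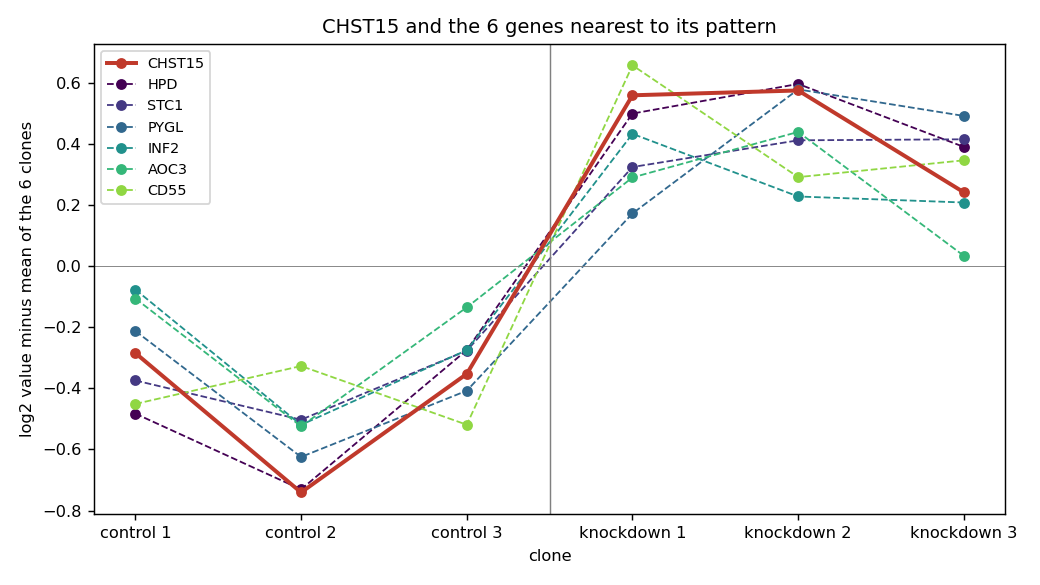
Log2 value minus the gene's mean over the 6 clones (vertical axis) in each clone (horizontal axis) for CHST15 (red, solid) and the 6 nearest genes by root mean square difference (dashed). Lines only join the points of a gene. All 7 genes are under 0 in the 3 controls and above 0 in the 3 knockdown clones.

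In the genome, CHST15 lies on chromosome 10. The measured gene before it in RefSeq order is CPXM2, a carboxypeptidase-like gene, at 3.84, 4.12 and 3.81 in the controls and 3.95, 4.35 and 4.18 in the knockdown clones, a dim signal with overlapping groups (log2 fold change 0.24). The measured gene after it is OAT, the ornithine aminotransferase gene, with a log2 fold change of 0.72. The groups overlapped in OAT, at 7.87, 6.61 and 6.55 in the controls and 6.99, 8.19 and 8.01 in the knockdown clones. Farther out, GPR26 had 0.17, the spindle checkpoint gene BUB3 -0.28, LHPP -0.025 and FAM53B 0.22. In limma 0 of these 6 neighbours passed (adjusted p 0.398 to 0.977), with 1, BUB3, at an unadjusted p under 0.05. Their differences were all smaller than that of CHST15. CHST15 was chosen for its difference, and 0.467% of all genes had a larger one, so this outcome was nearly fixed in advance.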

How the data were processed

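The table holds log2 expression values that the authors made with RMA, per the submitters' processing notes, which also name the R packages oligo and limma. RMA corrects background, brings arrays to a common distribution and summarises the probes of a feature, so a whole-array shift is removed and dim signals are compressed. The log2 scale was taken from the range of the deposited values. Tool versions and any filtering are not stated in the labels.

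The platform annotation names 1 gene for 17334 of the 19712 features, several genes for 1521, and none here for 857. Each gene was taken from its brightest feature by mean over the arrays, which gave 16704 genes, without a filter on dim genes. The groups were compared with limma 3.58.1 (lmFit, eBayes; R 4.3.3), without covariates, and p was adjusted over all genes by Benjamini-Hochberg with a threshold of 0.05. A positive log2 fold change means a higher value in the knockdown clones. In a test on simulated data with 200 of 16704 genes changed (10 draws), 88.7% of 2-fold changes were recovered and 4.48% of calls were false. The simulated noise was independent and alike in all arrays, which these clones are not, so the test shows only that the fit works. In the real arrays 63 genes differed at least 2-fold and 0 passed, so a gene not called is not thereby shown to be unchanged.

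The 10 genes and all lists were chosen with earlier results of these data known. Named from each other list of over 7 genes were the 3 with the smallest unadjusted p, since none passed, and every gene of shorter lists. The 6 genes most like CHST15 and the 3 measured genes on either side of it were named too, beside MBD2 and the cell type markers. Other named genes (PAPSS2, VCAN, DCN and BGN) were chosen after their values were seen. Of 93 related genes named in the lists, 85 were measured and 8 were not analysed here. Promoter windows of GRCh38.p14 are RefSeq's. CSGALNACT1 was not matched to one. Alternatives tried were other scalings, a dim filter, array weights, eBayes with trend and robust settings, a block for the replicate number, the mean of a gene's features, each array left out, clones 2 and 3 averaged, and an adjusted p under 0.1. Python 3.11.15 was used for the rest.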

Additional observations from a re-analysis of the deposited data

How the results depend on the processing

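The log2 fold change of CHST15 stayed positive under every alternative tried, between 0.78 and 1.03 when 1 clone was left out and 1.01 with array weights. Leaving out a clone could not turn its sign, since the groups did not overlap. For the other 9 genes all 124 values moved by less than 1 SD between replicates. This was fixed in advance for most of them. Leaving out 1 of 3 clones or averaging 2 cannot move a difference that far. The block, the dim filter and the mean of features leave these values unchanged. The sign turned in CHST7 and CHST12 with array weights (-0.083 and -0.012), in CHST7 without knockdown clone 1 (-0.096), in CSGALNACT1 without knockdown clone 3 (-0.043), and in CHST14 without knockdown clone 2 or 3 (0.0026 and 0.030) or with both averaged (0.016). The median of the 10 lay between -0.10 and -0.033 with 1 clone left out and at -0.016 with knockdown clones 2 and 3 averaged. The count of the 10 with groups apart was 3 to 7 with 1 clone left out, with 7 without knockdown clone 1 and 3 or 4 without any other clone. It was 2 of 10 after repeated quantile normalization, without CHSY1, beside 15.1% of all genes. With the dimmest 30% of genes left out it was 2 of the 8 members kept, beside 17.6% of the genes kept. That filter removes CHST11 and CSGALNACT1. The count over all genes was 3818 to 5855, or 22.9% to 35.1%, with 1 clone left out. Groups of 3 and 2 clones come apart more easily than groups of 3. Genes past the threshold numbered 1 after repeated quantile normalization, 1 after cyclic loess, 325 with array weights, 2 at an adjusted p under 0.1, and 0 to 70 with 1 clone left out (70 without knockdown clone 1, 7 without control clone 1), and the cause was not tested. Of the related genes, 1 (SPOCK1) passed with array weights and 0 under all other alternatives. With the replicate number as a block 0 genes and 0 related genes passed. The CHST15 value stayed 0.92, which a block cannot change in this balanced design. The labels do not say whether clones with the same number were paired. Deviations of such clones from their group means correlated at -0.025, -0.19 and 0.17 over genes. With 3 clones per group these deviations depend on one another, so the correlations cannot decide it. The counts of knockdown clone 1 standing apart under other scalings were chosen after seeing the data. Signals near the lower quartile of the arrays, as in CHST11 and CSGALNACT1, limit what these features can show.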
